A study of Homo sapiens with 6 samples.

Results

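The 41 genes described here encode collagen chains. They are all rows of the deposited expression table whose gene symbol has the form of a collagen chain name (COL, a type number, A and a chain number), out of 17170 genes in all. The rule reads the symbol and no measured value, although the family was picked for description with earlier results of these data known. The class list used to order them holds 45 collagen gene names, and the other 4, COL6A4, COL9A1, COL17A1 and COL25A1, are not analysed here. Collagens are secreted or membrane-bound proteins in which chains wind into a triple helix, and some types need chains from different genes while others are made of a single chain. Fibrillar collagens form the load-bearing fibres of connective tissue, network collagens form sheets such as the basement membrane, FACIT collagens decorate the surface of fibrils, beaded filament collagens form fine pericellular filaments, and transmembrane collagens stay anchored in the cell membrane. In tumours, fibrillar collagens are usually credited to fibroblasts of the stroma, and epithelial cells are known mainly for the collagens of the basement membrane.

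Per the labels, the cells were NCI-H69, a long-established line from small cell lung cancer that was grown in culture, and polyadenylated RNA was sequenced. The control cells carried a non-targeting guide RNA for CRISPR/Cas9 (3 biological replicates), and the other group carried a stable knockout aimed at the part of MIR7-3HG that codes for SCRMP (3 biological replicates). The labels do not say whether either line is a single clone, and all 6 samples share a batch name. The table has columns under the names that the labels give to the 3 controls and 0 columns under those given to the knockouts. All values below therefore come from the 3 control libraries, and no comparison of knockout with control was made. No value of the targeted locus is analysed here, so the genotype labels were not checked. The labels call the replicates biological but do not say how separate the cultures were. Each SD therefore covers only differences among these libraries, which may be partly technical.

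The libraries held 20941185, 22309228 and 22477571 estimated reads. Levels are in TPM, the share of a gene in all transcripts of a library, scaled to a fixed total after division by transcript length, so that genes can be compared with each other. A gene counted as detected if no control library had it under 1 TPM. By this rule 66.5% of all 17170 genes were detected, which is the share to set beside the counts below. The markers of the labelled cell type were largely absent: of 10 measured neuroendocrine markers 1 was detected, NCAM1 at 25.7 TPM ± 3.66 (SD, n = 3), and their summed level was 23.5 to 31.5 TPM. Fibroblast markers other than collagens had 10 of 12 detected, led by VIM at 4542 TPM ± 87.8 and POSTN at 693.8 TPM ± 96.2, with a summed level of 5745 to 5783 TPM. These markers go against the labelled cell type, so every level below is that of libraries labelled NCI-H69, and the identity of the cells was not tested. TWIST2 was listed at 0 and PDGFRB had 0.533 TPM ± 0.140. Cartilage markers had 3 of 10 detected (summed level 43.3 to 49.8 TPM), led by HAPLN1 at 34.1 TPM ± 2.87. Bone markers had 2 of 9 (18.7 to 23.4 TPM), led by RUNX2 at 13.8, 10.7 and 11.5 TPM. Smooth muscle markers had 3 of 6 (72.8 to 85.1 TPM), most of it from ACTA2 at 75.1 TPM ± 6.59. Epithelial markers had 2 of 7 (38.8 to 49.3 TPM), most of it from ESRP1 at 39.4 TPM ± 5.22. Endothelial markers had 0 of 4 (0.040 to 0.10 TPM). The cartilage markers ACAN, SOX5 and EPYC and the bone markers SPP1, IBSP and DMP1 were at or near 0. In bulk RNA, fewer cells of a type and less RNA per cell cannot be told apart, and the part of any second cell type in the collagen levels was not tested.

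The feature that unites the family can be read in the genes themselves. Glycine is encoded by GGN, and in the triple helix 1 codon in 3 is such a codon. In many collagen genes this repeat is cut into exons of 54 bases, each holding 6 repeats. The following is the first coding exon of 54 bases in the principal GENCODE 29 transcript of 5 of the most abundant members, shown because the same pattern recurs in genes of different collagen types. Capitals mark the GGN codons that open each repeat, and each sequence is written 5′ to 3′ on the gene's own strand (GRCh38).
COL3A1: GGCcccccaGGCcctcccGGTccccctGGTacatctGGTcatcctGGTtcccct
COL5A2: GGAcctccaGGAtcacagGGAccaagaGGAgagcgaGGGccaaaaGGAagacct
COL11A1: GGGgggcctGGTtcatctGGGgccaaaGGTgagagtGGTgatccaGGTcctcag
COL1A1: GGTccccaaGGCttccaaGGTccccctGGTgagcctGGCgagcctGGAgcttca
COL9A3: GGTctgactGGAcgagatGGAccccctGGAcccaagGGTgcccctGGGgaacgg
These exons lie at chr2:188988081-188988134 on the plus strand (COL3A1, coding exon 6 of 51), chr2:189097277-189097330 on the minus strand (COL5A2, 6 of 54), chr1:103008463-103008516 on the minus strand (COL11A1, 15 of 67), chr17:50197949-50198002 on the minus strand (COL1A1, 8 of 51) and chr20:62819929-62819982 on the plus strand (COL9A3, 5 of 32). All 5 begin on a codon boundary and hold GGN in 6 of 6 repeats.

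The classes differed in how long this repeat runs without a break. In the 11 fibrillar genes 41.2% to 55.0% of coding exons were 54 bases long, and the longest unbroken repeat was 337 to 343 codon triplets, except in COL24A1 (216) and COL27A1 (217). COL3A1 had the longest of all, 343 triplets. In the 9 network genes at most 5.88% of coding exons had this length, and the longest repeat was 38 to 66 triplets. Each of these genes held 9 to 27 separate stretches of 5 or more triplets. FACIT genes ranged widely, from 32 triplets in COL12A1 and COL14A1 to 113 in COL9A2, COL9A3, COL21A1 and COL22A1. Their share of coding exons of 54 bases ran from 6.15% to 43.8%, so it overlapped that of the fibrillar genes. COL6A1 and COL6A2 had 87 triplets each and COL6A3 had 45 in a coding sequence of 9531 bases. A long repeat did not always go with a high level. COL2A1, with 339 triplets and 24 exons of 54 bases, had 2, 6 and 1 reads in the 3 libraries.

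**Figure D1:**
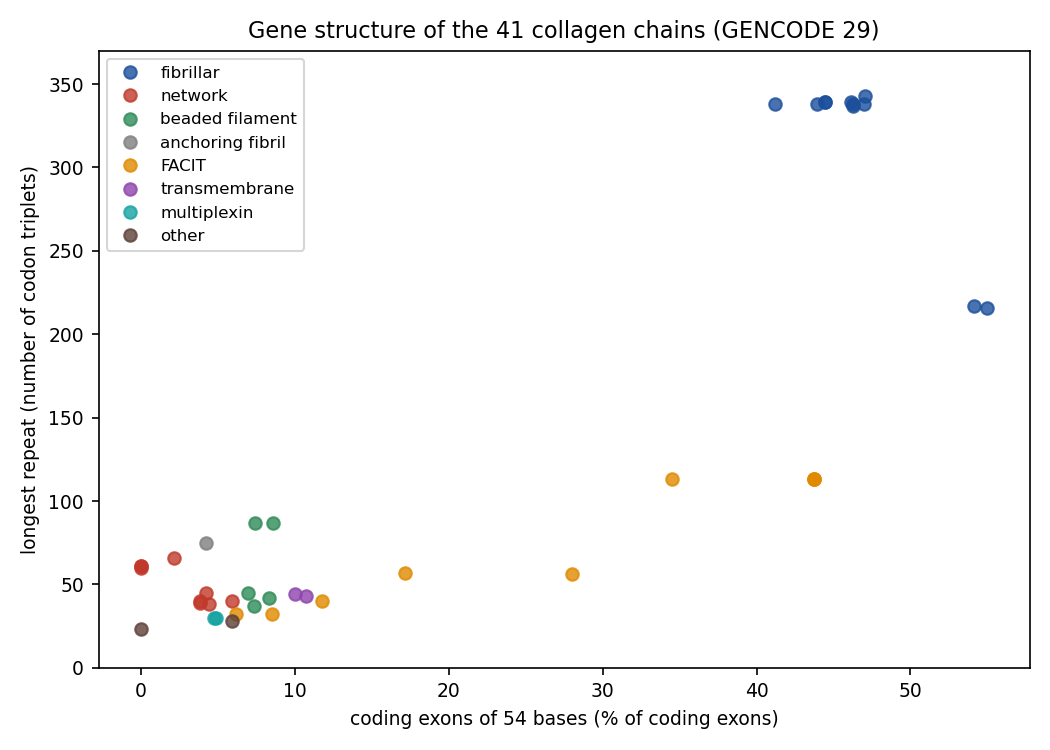
Each point is 1 of the 41 collagen genes, coloured by class. The x axis gives the percentage of its coding exons that are 54 bases long and the y axis its longest unbroken run of codon triplets that start with GGN. The fibrillar genes stand apart at 216 to 343 triplets, and no other gene is above 113.

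Of the 41 collagen genes, 21 were detected (51.2%), against 66.5% of all genes. A mean of 10 TPM or more was reached by 11 (26.8%, against 44.1% of all genes) and a mean of 100 TPM or more by 2 (4.88%, against 8.25%). The median member had 1.16 TPM and the median gene 6.87 TPM. Collagen transcripts summed to 1089.6, 1022.5 and 1077.5 TPM in replicates 1, 2 and 3, or 0.106% of all transcripts. Because collagen messages are long, they took 0.329% of reads. A single gene, COL3A1, held 53.4% ± 0.764 (SD, n = 3) of collagen TPM, and the 5 highest genes held 81.2% ± 0.260.

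The total was made up mostly of fibrillar chains, at 79.1% ± 0.342 of collagen TPM. FACIT chains held 11.0% ± 0.194 and beaded filament chains 8.35% ± 0.251. Network chains held 0.680% ± 0.0909, multiplexins, which carry sugar chains in basement membrane zones, 0.373% ± 0.0255, and transmembrane chains 0.110% ± 0.00246. Detected genes were 8 of 11 fibrillar, 6 of 9 FACIT, 2 of 5 beaded filament, 2 of 2 multiplexin, 1 of 2 transmembrane and 1 of 9 network genes. Over all genes the detected share was 66.5%, and the fibrillar and FACIT counts lay near it. COL7A1, the chain of anchoring fibrils under epithelia, was not detected.

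**Figure D2:**
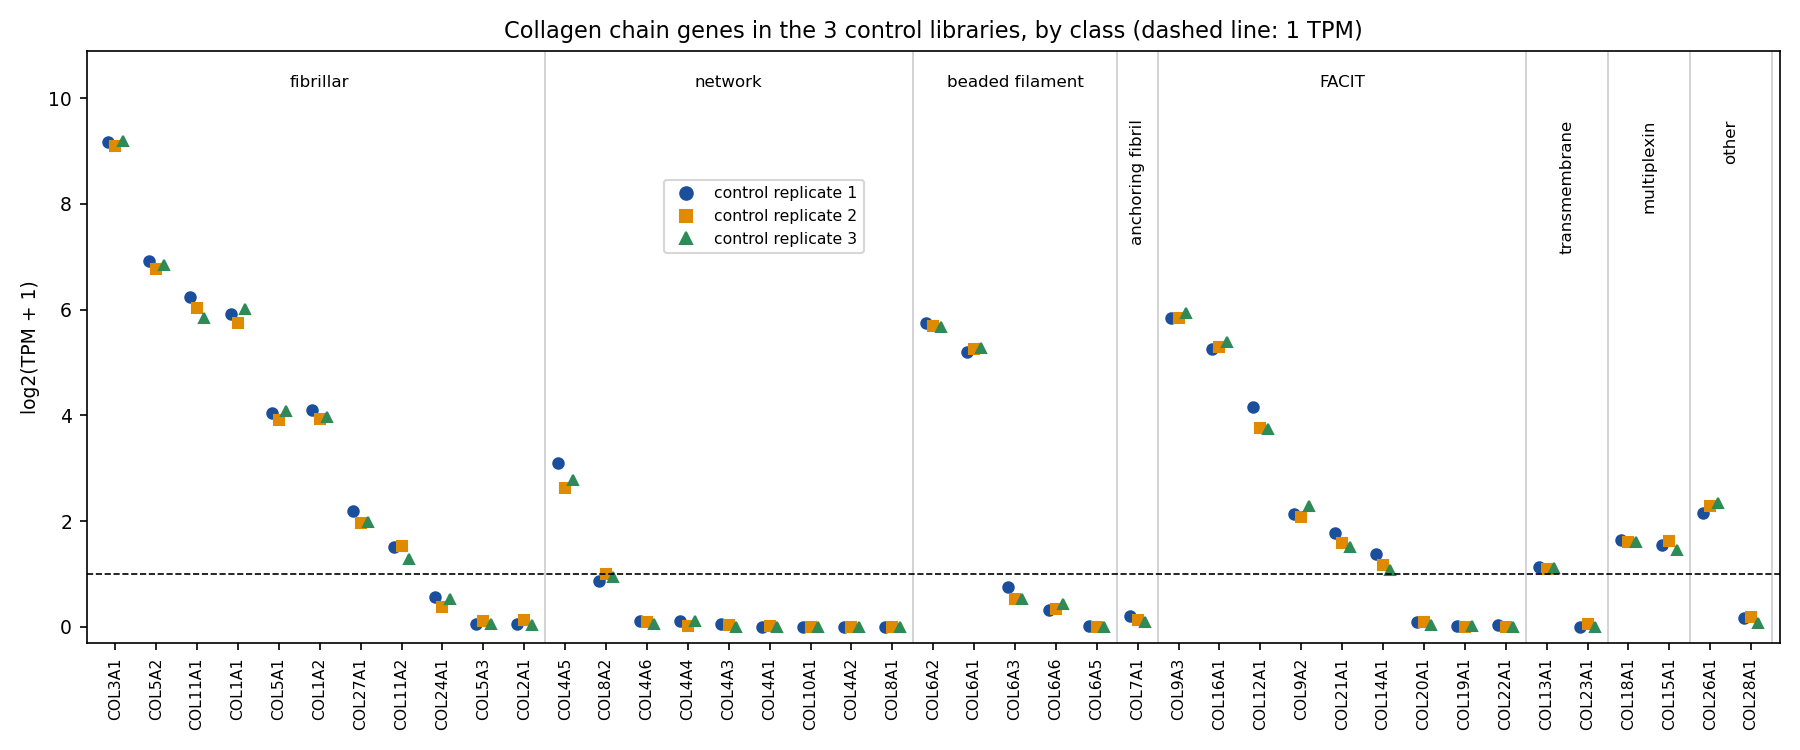
Each point is the level of 1 collagen gene in 1 control library, as log2(TPM + 1), with genes grouped by class and ordered by mean level. Fibrillar genes span the range up to COL3A1 at 567.5 TPM, FACIT genes reach 57.4 TPM and beaded filament genes 51.0 TPM, and among the 9 network genes COL4A5 is the one whose 3 points are all above the dashed line at 1 TPM.

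COL3A1, the chain of type III collagen, a homotrimer of stretchable tissues, had 573.1, 546.3 and 583.1 TPM, from 36977, 38393 and 41868 reads. It stood at rank 217 of all genes. COL5A2, a chain of type V collagen, which nucleates fibrils, followed with 120.8, 108.3 and 114.7 TPM. All 3 libraries of COL3A1 lay above all 3 of COL5A2. COL3A1 (chromosome 2, 188974373 to 189012746, plus strand) and COL5A2 (189031898 to 189441111, minus strand) are neighbours that point at each other, with 19151 bases between their ends.

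COL11A1, a chain of type XI collagen, best known from cartilage and from activated fibroblasts, had 74.4, 64.2 and 56.5 TPM. COL1A1, the main chain of type I collagen, had 59.5, 52.7 and 63.3 TPM, which overlapped COL11A1. The fibril partner chains COL5A1 (15.4, 14.1 and 15.9 TPM) and COL1A2 (16.1, 14.2 and 14.6 TPM) were lower and overlapped each other. The remaining detected fibrillar genes were COL27A1 at 3.14 TPM ± 0.393 and COL11A2 at 1.72 TPM ± 0.240. COL24A1 stayed under 1 TPM with 34.4, 24.0 and 37.0 reads. COL5A3 had 3, 4 and 3 reads, and COL2A1, the cartilage collagen, is given above. The fibrillar repertoire was thus headed by COL3A1, with type I chains at a lower level.

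Among FACIT genes, COL9A3, a chain of type IX collagen of cartilage fibrils, was highest with 56.1, 56.2 and 60.1 TPM. COL16A1, which sits at fibril and membrane surfaces, had 37.1, 38.1 and 40.7 TPM. COL12A1, the chain of type XII collagen on type I fibrils, had 16.9, 12.6 and 12.4 TPM, with replicate 1 above the other libraries. The ranges of these 3 genes did not overlap. COL9A2 had 3.50 TPM ± 0.344, COL21A1 2.09 TPM ± 0.280 and COL14A1, which binds decorin, 1.32 TPM ± 0.250. COL20A1 had 3, 4 and 1 reads, COL22A1 had 1 read in 1 library, and COL19A1 had 2.58 estimated reads over all 3 libraries.

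Beaded filament genes split into an abundant pair and a group under 1 TPM. COL6A2 had 52.5, 50.6 and 49.9 TPM and COL6A1 had 36.0, 37.0 and 37.8 TPM. These genes lie on chromosome 21 in the same direction, 93063 bases apart, and encode the short chains of type VI collagen. COL6A3, the long chain of the same trimer, had 0.690, 0.430 and 0.430 TPM from 73.0, 49.0 and 52.0 reads, so that every library of COL6A3 lay far below every library of its partners. COL6A6, a chain related to COL6A3 in sequence, had 0.283 TPM ± 0.0493 and COL6A5 1 read in 1 library.

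Network collagens were nearly missing. COL4A1 and COL4A2, the most widespread chains of the basement membrane, had 1 read in replicate 2 (COL4A1) and 0 reads in every library (COL4A2). COL8A1 and COL10A1, short chains of endothelial and hypertrophic cartilage matrix, also had 0 reads in all 3 libraries. A count of 0 allows up to 3 reads, for counting error only. COL4A3 had 2, 1 and 0 reads and COL4A4 had 6, 1 and 5. COL4A5 was the exception, with 7.52, 5.21 and 5.84 TPM from 531.8, 419.3 and 472.9 reads. Its neighbour COL4A6 had 4, 3.97 and 2 reads. COL8A2 lay at the threshold with 0.830, 1.00 and 0.930 TPM.

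The genes of type IV collagen are arranged in head-to-head pairs that share the DNA between their starts. The levels above differ inside and between these pairs: COL4A1 and COL4A2 (chromosome 13) were both at or near 0, COL4A3 and COL4A4 (chromosome 2) were both near 0, and of COL4A5 and COL4A6 (chromosome X, 379 bases between the starts) COL4A5 was detected. The sequences shown are the 126 bases between the starts of COL4A1 and COL4A2 at chr13:110307158-110307283, on the plus strand, and the 250 bases before the start of COL4A5 at chrX:108439588-108439837, on the plus strand. The 250 bases before the starts of 3 abundant members from other classes follow. These are COL11A1 at chr1:103108523-103108772 and COL16A1 at chr1:31704018-31704267 on the minus strand, and COL6A2 at chr21:46097862-46098111 on the plus strand. All are from RefSeq (GRCh38.p14), and capitals mark 3 short motifs of promoters on either strand. The first is TATAAA, the core of the TATA box. A GC box is written here as GGGCGG, and the CCAAT box by its own letters.
COL4A1-COL4A2: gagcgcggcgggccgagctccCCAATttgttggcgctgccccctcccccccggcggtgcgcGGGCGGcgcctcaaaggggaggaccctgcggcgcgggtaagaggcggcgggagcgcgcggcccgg
COL4A5: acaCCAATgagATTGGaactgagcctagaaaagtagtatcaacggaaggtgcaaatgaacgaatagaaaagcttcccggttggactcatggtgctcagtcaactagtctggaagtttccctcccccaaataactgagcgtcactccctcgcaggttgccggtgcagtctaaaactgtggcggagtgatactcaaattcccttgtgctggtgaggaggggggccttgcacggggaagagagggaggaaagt
COL11A1: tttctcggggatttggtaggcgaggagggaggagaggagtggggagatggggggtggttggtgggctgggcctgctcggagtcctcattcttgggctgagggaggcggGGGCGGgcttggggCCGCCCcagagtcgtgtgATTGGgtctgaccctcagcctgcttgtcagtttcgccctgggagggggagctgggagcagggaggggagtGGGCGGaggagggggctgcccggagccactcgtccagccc
COL16A1: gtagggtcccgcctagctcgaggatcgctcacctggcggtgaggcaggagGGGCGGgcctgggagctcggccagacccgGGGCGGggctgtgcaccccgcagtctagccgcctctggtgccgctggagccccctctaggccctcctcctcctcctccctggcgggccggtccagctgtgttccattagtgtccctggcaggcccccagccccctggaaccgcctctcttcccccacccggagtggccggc
COL6A2: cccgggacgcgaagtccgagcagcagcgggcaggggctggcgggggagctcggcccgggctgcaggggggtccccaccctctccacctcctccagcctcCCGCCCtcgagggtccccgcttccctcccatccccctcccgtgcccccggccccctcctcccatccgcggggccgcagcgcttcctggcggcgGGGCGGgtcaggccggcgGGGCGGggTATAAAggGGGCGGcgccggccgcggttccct
TATAAA was found in the COL6A2 sequence alone among these 5. GGGCGG occurred 4 times before COL6A2, 3 times before COL11A1, 2 times before COL16A1 and 0 times before COL4A5. Between COL4A1 and COL4A2 it occurred once, in a shorter stretch of 126 bases. CCAAT was found 2 times before COL4A5 and once each before COL11A1 and between COL4A1 and COL4A2. Of all 40 windows of members, 24 held GGGCGG, 10 CCAAT and 7 TATAAA. A link between these motifs and the level of a gene was not tested. Over all 35116 RefSeq windows of 250 bases, 10.7% held TATAAA, 42.6% GGGCGG and 32.0% CCAAT, and over the 126 bases nearest the start 5.87%, 34.6% and 21.1% did. None of the motifs overlapped another in the sequences shown. The DNA between COL4A1 and COL4A2 was 80.2% G and C with a CpG ratio (observed over expected) of 0.996, and that before COL4A5 was 51.2% G and C with a ratio of 0.501, against a median ratio of 0.558 over all windows. A match is a run of letters and no measurement of binding. Of the 41 members, 29 had a RefSeq promoter entry. The others were COL14A1, COL1A1, COL1A2, COL20A1, COL22A1, COL2A1, COL3A1, COL5A2, COL6A1, COL6A5, COL8A1 and COL9A3.

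Transmembrane and remaining members were low. COL13A1, a transmembrane collagen of muscle and nerve junctions, was detected at 1.16 TPM ± 0.0351 from 43.0, 42.0 and 45.0 reads, and COL23A1 had 1 read in 1 library. The multiplexins COL18A1, whose end fragment is endostatin, and COL15A1 had 2.06 TPM ± 0.0361 and 1.90 TPM ± 0.170. COL26A1 had 3.79 TPM ± 0.308, and COL28A1 had 6, 6 and 2 reads. COL7A1 had 16, 10 and 8 reads. In all, 13 of the 41 genes had 10 or fewer reads over the 3 libraries together, of which 3 had none. The share of all genes with so few reads was not computed, so this count is a description of the members only.

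Chains that assemble into the same trimer were set side by side, as ratios of RNA levels, which say nothing of protein. Of 9 partner pairs, 5 had both genes detected in all libraries. COL1A1 was 3.92-fold ± 0.365 (SD, n = 3) above COL1A2, with 3.69 to 4.34 in single libraries, where the type I trimer holds COL1A1 chains in excess of COL1A2. COL5A2 was 7.57-fold ± 0.328 above COL5A1, although the common type V trimer holds more COL5A1 chains. COL6A2 was 1.38-fold ± 0.0707 above COL6A1, the closest match among the 5 pairs. COL9A3 was 16.5-fold ± 0.974 above COL9A2 and COL11A1 38.0-fold ± 3.24 above COL11A2. In each of these 5 pairs the ranges over the libraries did not overlap. The order within each pair was the same in FPKM, in reads and in reads per coding length, and the COL6A2 to COL6A1 difference shrank from 0.47 to 0.17 on the log2 scale with reads per coding length. Type V and type XI chains are known to mix in fibrils, and of the chains that can do so COL5A2, COL11A1 and COL5A1 were above 10 TPM and COL5A3, COL11A2 and COL2A1 below 2 TPM. The pairs with COL4A2, COL4A6, COL8A1 and COL6A3 are not given as ratios because at least 1 gene was under 1 TPM.

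**Figure D3:**
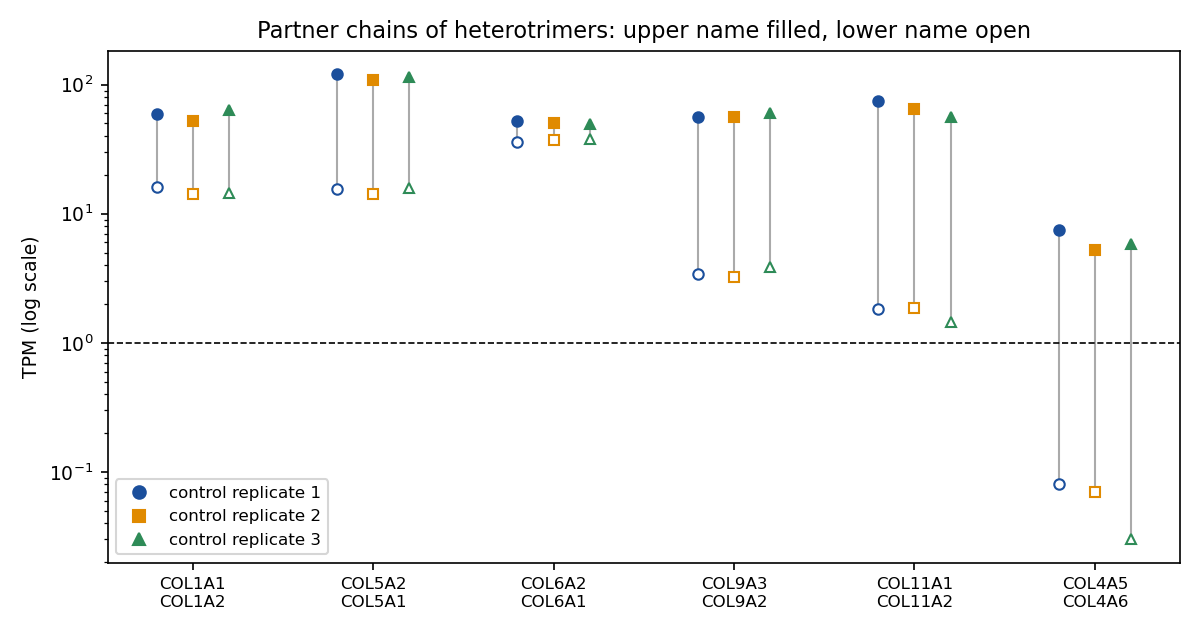
TPM on a log scale for 6 pairs of chains that join the same trimer, with the upper-named gene filled and the lower-named gene open, and a line joining both in each control library. COL6A2 and COL6A1 lie closest at 1.38-fold, and COL4A6 is the one gene below the dashed line at 1 TPM.

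Ordered by level, the 21 detected genes formed 20 neighbouring pairs. The ranges over libraries did not overlap in 8 of these and overlapped in 12. COL11A1, COL1A1 and COL9A3 could not be ordered at this spread, nor could COL16A1 and COL6A1, nor COL5A1, COL1A2 and COL12A1. Below COL21A1 every neighbouring pair overlapped, down to COL13A1. The steps from COL3A1 to COL5A2, from COL5A2 to COL11A1, from COL6A1 to COL5A1 and from COL12A1 to COL4A5 were larger than the spread.

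The spread between libraries differed among members. Over the 11 genes at 10 TPM or more, the coefficient of variation ran from 2.51% for COL6A1 to 18.3% for COL12A1, and 4 of them were above the median of 6.11% of the 7577 genes at this level. COL12A1 and COL11A1 (13.8%) also exceeded the 90th percentile of 13.6%. Counting error alone would give 2.39% for COL12A1 and 1.37% for COL11A1. In both genes replicate 1 was highest. COL4A5 varied by 19.3%, where counting error would give 4.59%, and replicate 1 was again highest. COL6A1 and COL6A2 (2.59%) stayed close to their counting errors of 2.27% and 2.15%. Of the 11 genes, 5 were highest in replicate 1, 6 in replicate 3 and 0 in replicate 2, and of all genes at this level 54.6%, 27.9% and 17.5% were.

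**Figure D4:**
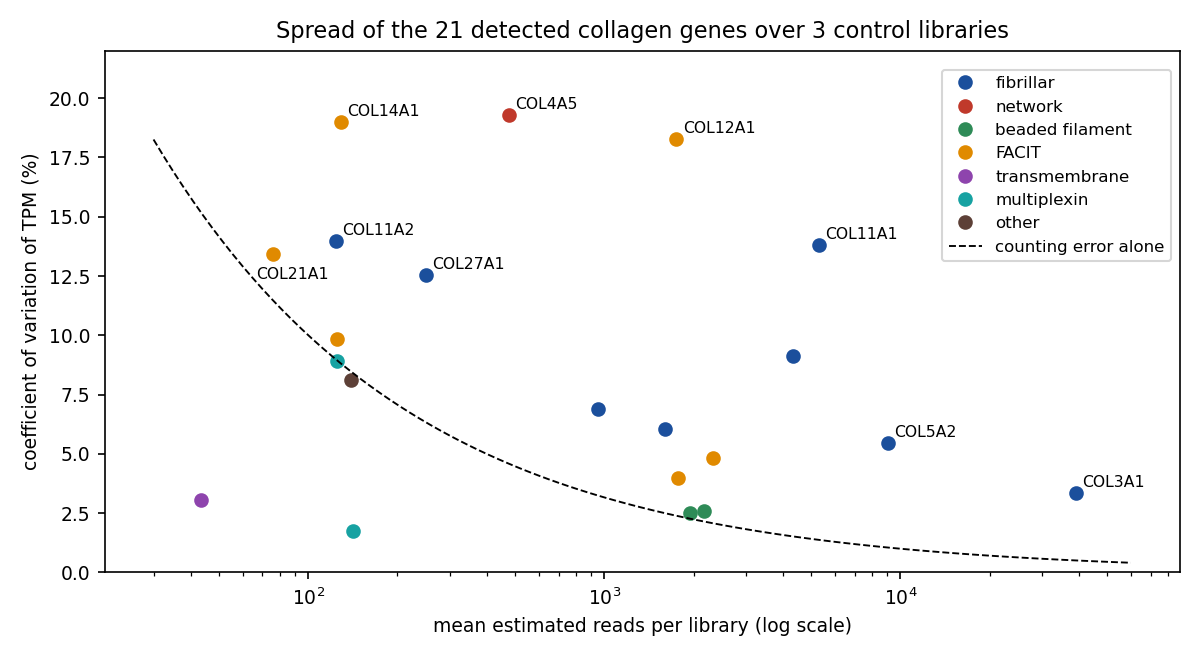
Coefficient of variation of TPM over the 3 control libraries against the mean number of estimated reads (log scale) for the 21 detected collagen genes, coloured by class. The dashed curve is the variation from counting reads alone. COL4A5, COL12A1 and COL11A1 lie well above it at 19.3%, 18.3% and 13.8%.

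Collagen chains are modified, folded and exported with the help of many enzymes and other proteins, not all of them particular to collagen. Of 80 measured genes on 7 lists of the collagen pathway, 56 were detected (70.0%, against 66.5% of all genes) and 43 reached 10 TPM (53.8%, against 44.1%). The detected share was near that of all genes. Of 14 enzymes that hydroxylate and glycosylate the chains, 13 were detected, and the median was 54.2 TPM ± 3.06. P4HB, the shared subunit of prolyl 4-hydroxylase, led with 746.9, 743.9 and 737.6 TPM, followed by CRTAP, part of the prolyl 3-hydroxylase complex (227.1 TPM ± 5.75), and PLOD3, a lysyl hydroxylase (145.3 TPM ± 7.07). P4HA3, an alternative catalytic subunit, had 3 reads in all. Of 12 genes for folding and export, 11 were detected, and the median was 67.6 TPM ± 3.30. PPIB, a prolyl isomerase, had 1638 TPM ± 7.29, SERPINH1, the collagen chaperone HSP47, 1025, 1110 and 1080 TPM, and PDIA3 427.4 TPM ± 32.3. SERPINH1 thus exceeded COL3A1 in each library. CREB3L1, a membrane-bound transcription factor that induces collagen genes in bone, had 0.413 TPM ± 0.178.

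The remaining lists, from propeptide processing to breakdown, were counted by the same rule, which 66.5% of all genes met. Of 10 measured genes for propeptide removal 6 were detected, and the median was 2.01 TPM ± 0.208. PCOLCE, which enhances cleavage of the C-terminal propeptide, had 462.2 TPM ± 24.03, the protease BMP1 28.9 TPM ± 1.65 and FURIN 7.87 TPM ± 0.249. ADAMTS14, TLL2, MEP1B and PCOLCE2 were under 1 TPM, and MEP1A is not analysed here. Of 5 lysyl oxidases, which cross-link fibrils, 4 were detected: LOX at 68.1 TPM ± 8.995, LOXL2 at 22.4 TPM ± 0.839 and LOXL1 at 15.8 TPM ± 2.24 were the highest, and LOXL4 had 2.00 reads in all.

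Of 18 partners of fibrils and networks 11 were detected, and the median was 3.11 TPM ± 0.0757. The proteoglycan BGN had 382.8 TPM ± 24.03, the collagen-binding glycoprotein SPARC 166.2 TPM ± 4.47 and FBLN1 139.2 TPM ± 3.26. PRELP, TGFBI, ASPN, THBS2, TNXB and NID2 were under 1 TPM, and HSPG2, the basement membrane proteoglycan perlecan, lay at 1.19, 0.980 and 1.23 TPM. NID2, a link protein of the type IV network, had 1.97 estimated reads in all. NID1, its close relative, had 2.44 TPM ± 0.140.

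Of 11 measured collagen receptors 4 were detected, and the list median was 0.973 TPM ± 0.0907. ITGB1, the shared β subunit of collagen-binding integrins, had 192.7 TPM ± 19.7, the kinase DDR2, a receptor for fibrillar collagen, 93.8 TPM ± 8.61, and the uptake receptor MRC2 35.2 TPM ± 1.77. DDR1 was also detected at 18.3 TPM ± 0.804. The α subunits that pair with ITGB1 to bind collagen were low: ITGA1 had 1.30, 1.07 and 0.960 TPM, ITGA11 0.617 TPM ± 0.0961, ITGA2 0.137 TPM ± 0.0862 and ITGA10 0.0367 TPM ± 0.0153. ADGRG1, a receptor of type III collagen, lay at 0.890, 1.23 and 1.13 TPM, LAIR1 at 0.730 TPM ± 0.122 and GP6 at 0.243 TPM ± 0.0666, and CD93 is not analysed here.

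Of 10 measured genes for collagen breakdown 7 were detected, and the median was 12.1 TPM ± 0.397. The membrane collagenase MMP14 had 272.1 TPM ± 2.71, the lysosomal protease CTSB 83.2 TPM ± 1.24 and the dipeptidase PEPD, which recycles proline, 71.3 TPM ± 3.61. The secreted collagenases MMP8 and MMP13 were listed at 0 in all libraries, MMP9 had 2.70 estimated reads in all, and MMP1 is not analysed here.

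**Figure D5:**
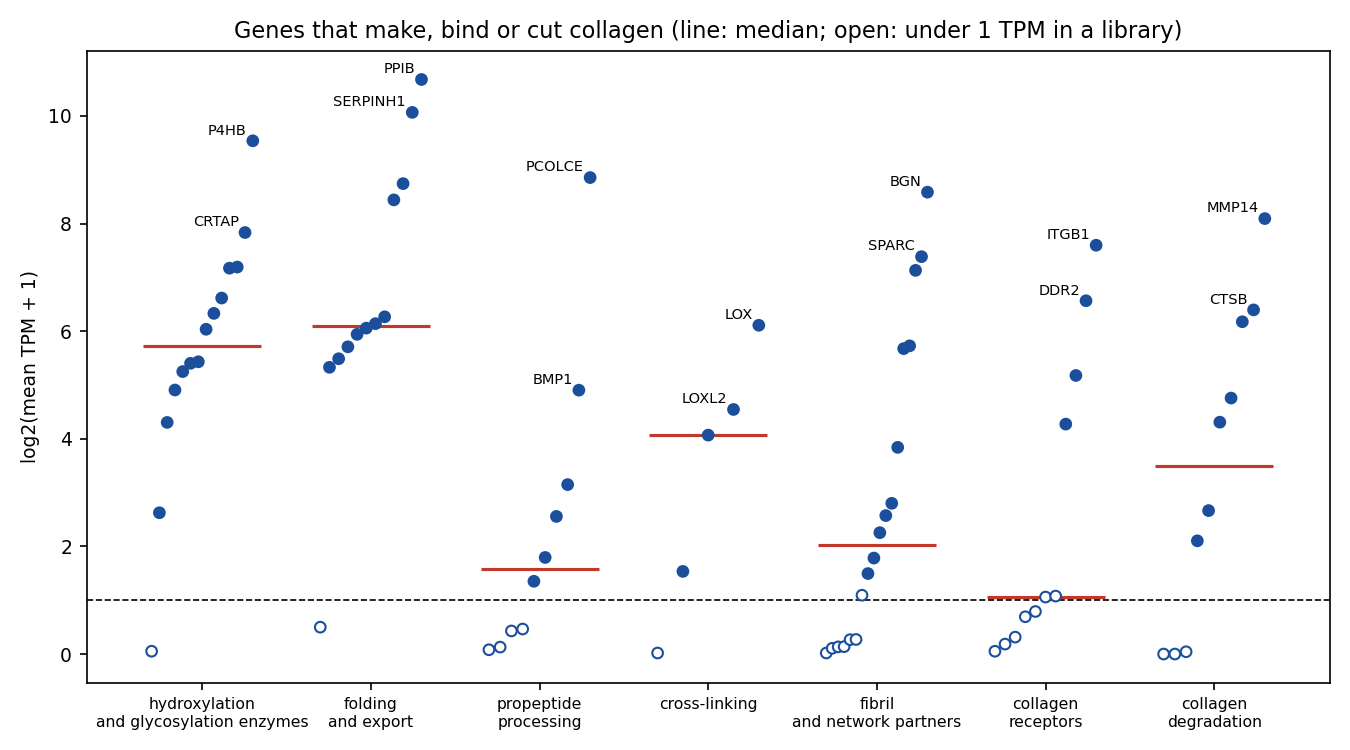
Each point is the mean level of 1 gene over the 3 control libraries, as log2(mean TPM + 1), in the 7 lists of the collagen pathway, with the median of each list as a line and open points for genes under 1 TPM (dashed) in at least 1 library. The enzyme and export lists have medians of 54.2 and 67.6 TPM, and the receptor list has 7 of 11 genes open.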

How the data were processed

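RNA of 6 NCI-H69 samples was described in the labels, and the 3 control libraries were analysed. Per the labels' protocols, poly(A) RNA was captured and strand-specific libraries were sequenced on a DNBSEQ-T7 instrument. Per the submitters' processing notes, the authors used HISAT2, StringTie and DESeq2 with the build GRCh38, and no version or role is stated. The values deposited are TPM, FPKM and estimated counts of reads, as named in the file headers. TPM sum to the same total in each library, 24.0% of estimated counts are whole, and no source used here names the annotation. TPM depend on the transcript length that was assumed, which bears on ratios between genes. The header holds 12 columns of values for 3 further libraries whose names match no label, and these were used in no step.

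Members were taken by symbol and ordered by textbook class. The family and the lists were chosen with earlier results of these data known, and the rule for members reads only the symbol. Gene positions came from RefSeq (41 of 41 matched by gene number), and exons and coding sequences from the longest principal coding transcript in GENCODE 29 (41 of 41 matched by symbol). Repeats were counted as codons opening with GG at every 3rd codon, tested on simulated data. Motifs were searched on both strands. Each member is accounted for, with values per library from a mean of 10 TPM upward. From each list the 3 highest genes and those under 1 TPM in any library are named. Of each marker list with a detected gene, the highest is named. POSTN and some of the markers under 1 TPM are named as well. No test between groups was run, and means ± SD are over 3 libraries. Genes under 1 TPM rest on few reads, and reads of related chains may be assigned to either. Alternatives were other minimum levels, FPKM, reads, reads per coding length, 1 TPM added before the log2 ratio, and 2 of the 3 libraries at a time. The tools were pandas 2.3.3, numpy 2.4.6 and matplotlib 3.10.9 under Python 3.11.15.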

Additional observations from a re-analysis of the deposited data

How the results depend on the processing

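No paired analysis was possible because the knockout samples have no matching columns. Of 152 alternative values, 26 moved and 0 changed sign, where a count moved if it differed from the main count by more than 1.5 times and another value if it differed by more than 1 SD between libraries. Within that tolerance, detected collagens ranged from 18 with FPKM of at least 1 to 25 with a minimum of 0.1 TPM or at least 10 estimated reads, fibrillar genes from 6 (at 5 TPM) up to 9 under both looser rules, propeptide processing genes from 5 to 8 and partners from 11 to 14. The 21 detected collagen genes became 12 with a minimum of 5 TPM, which also gave 3 FACIT genes, 0 transmembrane, 0 multiplexin and 0 other genes, 3 propeptide processing genes and 7 partners. With a minimum of 0.1 TPM, 2 network genes, 4 beaded filament genes and 9 receptors counted as detected, and with at least 10 estimated reads 2, 4 and 8. With FPKM of at least 1 there were 0 transmembrane genes. The share of all genes was not computed under these other minimum levels, and the 66.5% given above holds for 1 TPM alone. Collagens held 0.329% of reads against 0.106% of TPM, since reads are not divided by length. The log2 ratio of COL1A1 to COL1A2 was 1.97 and became 2.19 in reads. That of COL5A1 to COL5A2 was -2.92 and became -2.50 in reads, -2.84 with 1 TPM added and -2.79 in reads per coding length. For COL6A1 to COL6A2 it was -0.47, with -0.16 in reads and -0.17 in reads per coding length. For COL9A2 to COL9A3 it was -4.04, with -3.84, -3.70 and -3.85 in reads, with 1 TPM added and in reads per coding length, and for COL11A1 to COL11A2 5.24, with 5.43 in reads and 4.60 with 1 TPM added. The planned RefSeq coding length was not used, and that of GENCODE was chosen after seeing the data. Genes with a few reads cannot be ordered at this depth.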
